A study of Mus musculus with 48 samples.

Results

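The 9 arrays of 4T1 sub-clones grown ex vivo from tumors of the axillary lymph node (AxLN) were compared with 6 arrays of 4T1 sub-clones grown from tumors of the mammary fat pad (MFP). These 15 of the 48 arrays of the series were taken by their labels: every array labelled as an AxLN-injected or MFP-injected tumor sub-clone, apart from those whose titles carry the word removed. 4T1 is a mouse mammary carcinoma line that spreads spontaneously to lymph nodes and lungs in Balb/c mice. All cells descend from one 4T1 stock and carry a lentiviral reporter with puromycin selection, and all sub-clones were recovered from dissociated tissue of female Balb/c mice with 6-thioguanine, to which 4T1 cells are resistant. The AxLN sub-clones came from 4T1-mCh/rL cells, which express mCherry and Renilla luciferase, injected into the node. They are AxLN tumor 1 at day 7, AxLN tumor 2 at day 7 and AxLN tumor 2 at day 14, with 3 arrays each. The MFP sub-clones came from 4T1-GFP/fL cells, which express GFP and firefly luciferase, injected into the fat pad. They are MFP tumor 1 and MFP tumor 2, both at day 28, with 3 arrays each. The references were the parental 4T1-mCh/rL line and the parental 4T1-GFP/fL line, with 4 arrays each, grown in culture without passage through a mouse. Injection site, reporter line and day of recovery coincide in these groups, so their parts in any difference cannot be told apart. The labels do not tie a sub-clone to a mouse.

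The lymph node is often the earliest site that a mammary carcinoma colonizes, and cells growing there meet lymph and immune cells in place of the fat and fibrous stroma of the gland. Gene programs that commonly vary between isolates of one carcinoma line are the cell cycle, in which E2F factors switch on replication genes and a later set drives mitosis, and the integrated stress response, in which the kinases of eIF2α raise the translation of the transcription factor ATF4. ATF4 then switches on genes of amino acid synthesis and import. Epithelial junctions, interferon responses and lipid synthesis are further programs of this kind.

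Each value below is a log2 intensity minus the average of the 2 parental lines on that array's plate, averaged over the arrays of a sub-clone, and 1 such unit is a 2-fold change. Values of the AxLN sub-clones are given in the order tumor 1 day 7, tumor 2 day 7 and tumor 2 day 14, and those of the MFP sub-clones in the order tumor 1 and tumor 2. The comparison was repeated with each sub-clone set against its own parental line alone, mCh/rL for AxLN and GFP/fL for MFP. With this layout the difference against the own line equals, for every gene, the difference over both lines minus the difference between the parental lines.

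The cultures had the markers of the carcinoma. All 7 epithelial markers fixed for 4T1 cells lay above the filter on dim genes, with summed intensities of 8903 to 10196 in the AxLN arrays, 7936 to 8374 in the MFP arrays and 8124 to 9222 in the parental arrays. Of 8 T and B lymphocyte markers 0 passed the filter, and sums were 36.0 to 43.8 in AxLN against 41.2 to 47.2 in MFP arrays. Fibroblast markers summed to 155 to 237 in AxLN against 235 to 471 in MFP and 134 to 182 in parental arrays, with 2 of 9 above the filter. Macrophage markers summed to 270 to 544 in AxLN against 183 to 427 in MFP and 167 to 249 in parental arrays, with 3 of 9 above it. The pan-leukocyte gene Ptprc did not pass in either group. Among the sub-clones, MFP tumor 1 stood apart. It lay outside the other 4 sub-clones by over 1 log2 unit for 176 genes, 74 above and 102 below, against 35 for AxLN tumor 2 day 7, 13 for MFP tumor 2, 10 for AxLN tumor 1 day 7 and 6 for AxLN tumor 2 day 14. The 3 AxLN sub-clones differed from one another by 0.319 to 0.344 (root mean square over 11565 genes), the MFP sub-clones by 0.447. AxLN tumor 2 day 14 differed from MFP tumor 2 by 0.316. With 2 MFP sub-clones, of which 1 stands apart, each result below is given with and without MFP tumor 1 where that matters.

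No single gene passed the test across all genes. With the sub-clone as the replicate (3 AxLN, 2 MFP), limma called 0 of 11565 genes (0%) at a Benjamini-Hochberg adjusted p under 0.05, over both parental lines (lowest adjusted p 0.694) and against the own line (0.467). At an unadjusted p under 0.05, 344 genes (2.97%) were higher and 460 (3.98%) lower in AxLN over both lines, and 458 (3.96%) were higher and 617 (5.34%) lower against the own line. The words higher and lower therefore describe values here, and no gene is said to have changed. The 3 AxLN sub-clones lay entirely above both MFP sub-clones for 1656 genes (14.3%) and entirely below them for 2046 (17.7%). Against the own line these counts were 1841 (15.9%) and 2208 (19.1%), and under both baselines 980 (8.47%) and 1341 (11.6%). The 9 AxLN arrays lay entirely above the 6 MFP arrays for 440 genes (3.8%) and entirely below for 658 (5.69%). Over all genes the difference was above 0 for 5478 (47.4%) and below 0 for 6087 (52.6%) over both lines, and above 0 for 5643 (48.8%) and below 0 for 5922 (51.2%) against the own line, with a median of -0.01 under each. The parental lines themselves differed: limma called 718 genes (6.21%) higher and 767 (6.63%) lower in mCh/rL than in GFP/fL. That fit had single arrays as the replicate, so its calls cannot be set beside those with the sub-clone as the replicate.

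The 12 genes with the largest differences on the higher side that held under both baselines and within each plate included several of epithelial junctions and membranes. They were selected by separation and by p, so their values are a description with no test. Plate 1 holds AxLN tumor 1 day 7 and MFP tumor 2, plate 2 holds both AxLN tumor 2 sub-clones, and MFP tumor 1 is on both. MFP tumor 1 is thus the only MFP sub-clone on plate 2. The plates compare different sub-clones, so their agreement is no replication of one comparison. Cldn9, a claudin of tight junctions, lay 3.42, 1.26 and 2.32 above the parental mean in the AxLN sub-clones, against 0.24 and 0.33 in the MFP sub-clones. Its intensity over the arrays (lowest, median and highest) was 97.0, 210.6 and 444.6 in AxLN, 38.7, 49.6 and 59.4 in MFP, 41.0, 48.2 and 59.6 in parental mCh/rL and 29.5, 33.7 and 35.0 in parental GFP/fL. The MFP sub-clones thus stayed near the parental lines, and every AxLN array lay above every MFP array. The difference was 2.05 ± 0.60 (SE of the limma fit), 1.48 against the own line. S100a14, an epithelial calcium-binding protein, lay at 2.03, 3.20 and 1.97 in AxLN against 0.34 and 0.50 in MFP, a difference of 1.98 ± 0.56. Its arrays read 36.8, 49.8 and 100 in AxLN against 8.51, 15.98 and 23.99 in MFP, again with no overlap.

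A further 5 of these genes act in epithelial structure or signaling. Erbb3, a receptor for neuregulins, lay at 1.26, 1.22 and 1.04 in AxLN against -0.84 and 0.31 in MFP (difference 1.44 ± 0.51), with arrays of 208, 245 and 309 in AxLN against 55.4, 97.7 and 166 in MFP. Myh14, a non-muscle myosin heavy chain, lay at 1.77, 1.13 and 1.22 against -0.53 and 0.13 in MFP. Both genes were above the parental level in each AxLN sub-clone. Cdsn, the corneodesmosin of keratinizing epithelia, differed by 1.67 and Upk3bl, a uroplakin-like membrane protein, by 1.54. Esrp1, a splicing regulator of epithelial cells, belongs to this set only through MFP tumor 1: it lay at 0.45, 0.87 and 0.63 in AxLN against -2.66 and 0.28 in MFP, and the difference of 1.84 was 0.37 without MFP tumor 1.

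The remaining higher genes had other roles. Mmp13, a collagenase, was raised over the parental lines in every sub-clone, at 3.16, 4.00 and 3.93 in AxLN against 2.06 and 2.65 in MFP. Arrays read 223, 347 and 414 in AxLN and 94.7, 133 and 179 in MFP, with 16.7, 19.3 and 28.7 in parental mCh/rL and 28.2, 30.8 and 31.5 in parental GFP/fL. Because the parental lines ran the other way, its difference was larger against the own line, 1.91 against 1.34 over both lines. H2-T23, a non-classical class I molecule recognized by natural killer cells, lay at 2.12, 2.98 and 1.97 in AxLN against 1.25 and 0.61 in MFP. Ifi205, an interferon-inducible gene, lay at 0.96, 1.74 and 1.96 against 0.00 and 0.36. Acot2, a mitochondrial acyl-CoA thioesterase, differed by 1.60 and Stbd1, a glycogen-binding protein, by 1.48. For Stbd1 the difference was 0.79 against the own line, since parental mCh/rL was itself 0.69 above GFP/fL.

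On the lower side the largest difference was in H2-Ab1, the beta chain of a class II molecule that presents antigen to helper T cells. It lay at -0.10, -0.08 and 0.91 in AxLN against 1.83 and 3.10 in MFP, a difference of -2.22 ± 0.47. Arrays read 10.5, 19.1 and 33.3 in AxLN and 29.4, 121.7 and 176 in MFP, with 14.1, 16.9 and 25.3 in parental mCh/rL and 10.9, 14.9 and 19.1 in parental GFP/fL. AxLN tumor 1 day 7 and AxLN tumor 2 day 7 were at the level of the parental lines, and the AxLN and MFP arrays overlapped by their outermost values. H2-Eb1, another class II chain, lay at -0.12, -0.06 and 0.31 in AxLN against 0.27 and 0.87 in MFP, and the sub-clones overlapped. Ptprc, which all leukocytes express, was not above the filter, with medians of 4.86 in AxLN against 4.95 in MFP arrays. The summed macrophage markers are given above, and the part of other cells in these values was not tested.

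Adhesion, matrix-degrading and signaling genes followed. Itgb2, the common chain of the leukocyte integrins, lay at 1.78, 1.29 and 2.17 in AxLN against 3.48 and 2.72 in MFP (difference -1.35 ± 0.48), with arrays of 351, 535 and 706 in AxLN, 970, 1322 and 1740 in MFP, 185, 192 and 212 in parental mCh/rL and 112, 115 and 123 in parental GFP/fL. All sub-clones were above both parental lines, and the difference widened to -2.10 against the own line. Hpse, the heparanase that cleaves heparan sulfate, lay at 0.44, -0.18 and 0.98 in AxLN against 2.34 and 1.58 in MFP. Cdon, a cell surface receptor of the Hedgehog pathway, lay at -0.02, -0.08 and 0.00 in AxLN, the parental level, against 1.73 and 1.19 in MFP, with arrays of 117, 140 and 171 in AxLN against 295, 397 and 483 in MFP. The casein gene Csn3 lay at 0.01, 0.64 and 0.82 in AxLN against 2.84 and 1.41 in MFP. Hunk, a protein kinase, lay at -0.09, -0.35 and -0.09 against 1.48 and 1.00. Cdon, Hunk and A630001G21Rik, a gene with no role given here, share a pattern in which AxLN stayed within 0.35 of the parental mean and both MFP sub-clones lay above it. Unlike Cdon, the other 2 were dim, where array medians were 8.53 to 9.15. Median intensities in AxLN and MFP arrays were 11.8 and 31.1 for Hunk and 17.3 and 41.1 for A630001G21Rik. Nt5dc2, a nucleotidase-domain protein, differed by -2.05, and the cilium protein Dzip1 by -1.78. The zinc finger gene Zfp709, the Ras-like gene Rerg and the hydroxylysine kinase Hykk lay between -1.56 and -1.30. AxLN arrays were dim for these 3 genes, Hpse and Csn3 as well, with medians from 13.2 (Zfp709) to 20.5 (Csn3). The part of noise in the differences of the dim genes was not tested.

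Over the 12 higher genes the difference from MFP tumor 2 alone was 0.37 to 2.00, and over the 12 lower genes -2.86 to -0.75, with signs that the choice of separated genes fixes. The difference moved by over 1.5 times for Esrp1 as given above, for Erbb3 (0.86 without MFP tumor 1), Upk3bl (0.96), Csn3 (-0.92), Zfp709 (-0.75), Rerg (-0.86) and Hykk (-0.80). By single arrays the groups overlapped for Ifi205, H2-Ab1, Zfp709, Rerg and Hykk. The fibroblast marker Pdgfra had a median intensity of 150 in AxLN against 279 in MFP and 91.6 in parental arrays, and its part in these differences was not tested.

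**Figure D1:**
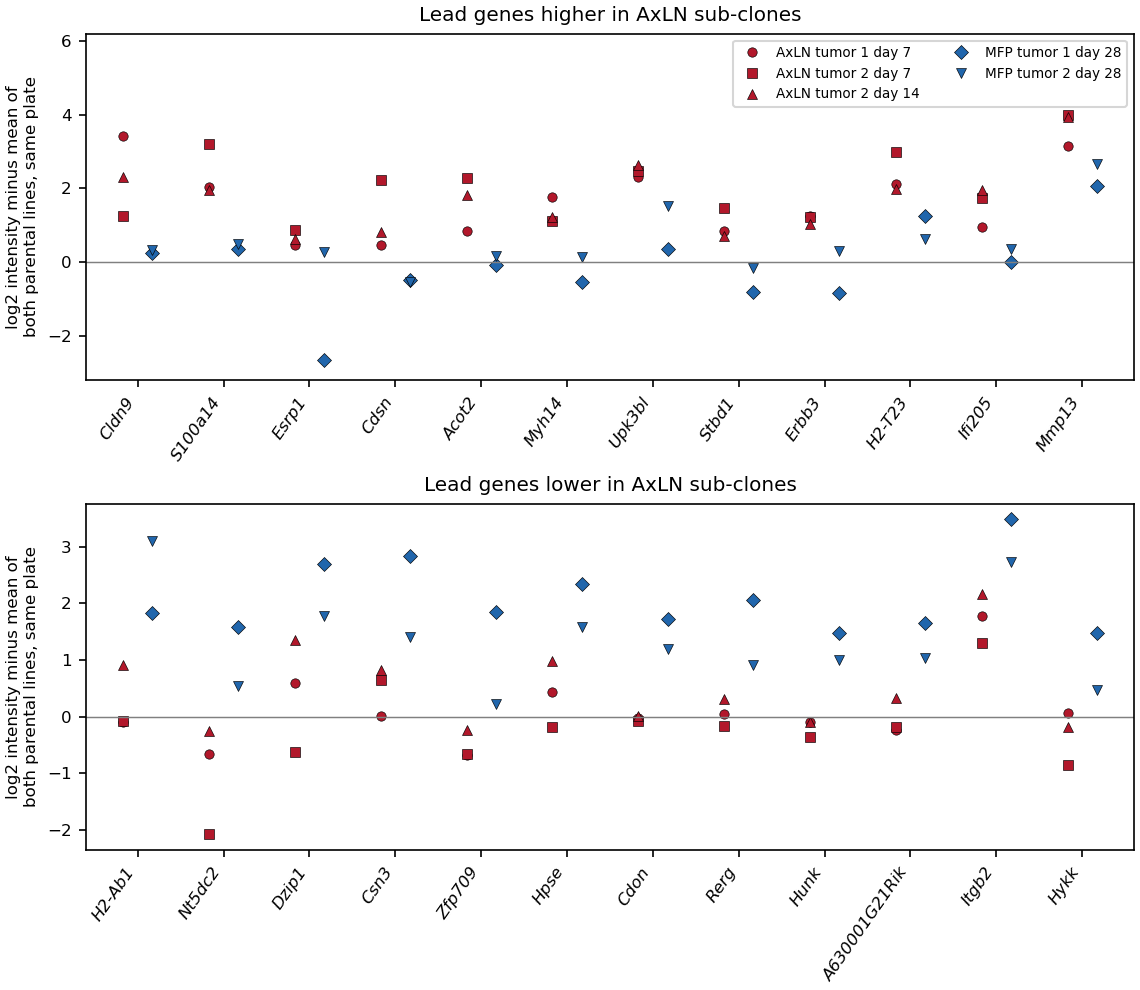
Log2 intensity minus the average of the 2 parental lines on that plate (vertical axis) for the 12 genes with the largest differences on the higher side (top) and on the lower side (bottom), with 1 point per sub-clone, AxLN left of MFP for each gene. For Cdon the 3 AxLN points sit at the parental level and the MFP points at 1.73 and 1.19, and for Esrp1 MFP tumor 1 lies alone at -2.66.

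Cell cycle genes were lower in the AxLN sub-clones almost throughout. The G2/M list, genes that peak before and during mitosis, had 51 tested genes, of which 50 were lower and 1 was higher in AxLN over both lines, with a median of -0.38. The S phase list, genes of DNA replication, had 39 tested genes, all 39 lower, with a median of -0.37. Against the own line the medians were -0.35 with 50 of 51 lower and -0.41 with 38 of 39 lower, and the parental difference had medians of -0.06 and 0.02. Over all genes 52.6% were lower, with a median of -0.01. The AxLN sub-clones lay entirely below both MFP sub-clones for 35 G2/M genes and 25 S phase genes, where 17.7% of all genes did. At an unadjusted p under 0.05, 23 G2/M and 11 S phase genes were lower over both lines, where 3.98% of all genes were, and 0 genes were called. In bulk cultures fewer cells in a phase and less RNA per cell cannot be told apart. The study measured growth of the ex vivo cells and reports faster division of the AxLN than of the MFP sub-clones. The values here do not measure the rate of division.

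By sub-clone the G2/M medians were -0.37, -0.59 and -0.22 in AxLN against 0.06 and -0.07 in MFP, and the S phase medians -0.30, -0.65 and -0.33 in AxLN against 0.05 and -0.20 in MFP. Each AxLN sub-clone was thus below the parental lines, AxLN tumor 2 day 7 the most, and the MFP sub-clones lay near them. Without MFP tumor 1 the medians were -0.40 for G2/M and -0.27 for S phase. Within plates 1 and 2 they were -0.39 and -0.42 for G2/M and -0.22 and -0.55 for S phase. The plate values come from different sub-clones, and those of plate 2 have MFP tumor 1 as the only MFP sub-clone.

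Among replication genes, Rrm2, the small subunit of ribonucleotide reductase, lay at -1.18, -1.87 and -1.08 in AxLN against -0.19 and -0.29 in MFP. Arrays read 262, 465 and 525 in AxLN and 876, 910 and 961 in MFP, with 966, 1005 and 1136 in parental mCh/rL and 1063, 1076 and 1246 in parental GFP/fL. Every AxLN array lay below every MFP and parental array. Cdc6, which loads the replicative helicase on origins, lay at -0.77, -1.65 and -0.84 in AxLN against 0.18 and -0.21 in MFP, a difference of -1.07 ± 0.27. The helicase subunits differed less: Mcm5 lay at -0.46, -0.99 and -0.47 in AxLN against 0.05 and -0.32 in MFP, and Mcm6, at -0.03, -0.35 and -0.23 against 0.28 and -0.12, overlapped. The fork protein Tipin differed by -0.73 and Mcm3 by -0.56.

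Among mitotic genes, Nuf2, a kinetochore protein that binds spindle microtubules, lay at -0.78, -0.92 and -0.67 in AxLN against 0.03 and -0.13 in MFP (difference -0.74 ± 0.19). The spindle proteins Dlgap5, Cenpf and Gas2l3 differed by -0.68, -0.65 and -0.65. Plk1, the kinase of mitotic entry, lay at -0.71, -0.71 and -0.42 in AxLN against -0.12 and -0.01 in MFP. Cdk1, the cyclin-dependent kinase that starts mitosis, lay at -0.24, -0.73 and -0.15 against 0.14 and 0.05, a smaller difference of -0.47. Each of these mitotic genes was separated by sub-clone over both lines. Without MFP tumor 1 the differences of Mcm5 and Mcm6 were -0.32 and -0.08. The only G2/M gene above 0 was Ect2, at 0.03, and it was at -0.10 without MFP tumor 1.

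The regulators were lower too. Of 13 E2F and Rb family genes, 10 were lower and 3 higher, with a median of -0.31 (-0.24 against the own line), and 9 were separated on the lower side (17.7% of all genes). E2f8, a repressor of the family that is itself a target of E2F, lay at -1.01, -1.41 and -1.09 in AxLN against 0.17 and -0.34 in MFP, a difference of -1.08 ± 0.34. E2f2 differed by -0.59, E2f7 by -0.54, E2f1 by -0.44 and E2f3 by -0.36 over both lines. The 3 on the other side lay between 0.04 and 0.20. Against the own line 8 genes were separated on the lower side (19.1% of all genes). E2f7 was itself lower in parental mCh/rL than in GFP/fL, with median intensities of 257 and 329. Without MFP tumor 1 its difference was -0.68 over both lines and -0.33 against the own line.

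The study drew 12 genes as a cell cycle and chromatin set. They were picked on these samples, so their direction is no independent evidence. Of the 12, 10 were lower and 2 higher in AxLN, all separated by sub-clone over both lines, with a median of -0.58 (-0.52 against the own line). Against the own line 9 of the 10 lower genes and the 2 higher ones were separated. Over all genes 17.7% were separated lower and 14.3% higher over both lines, and 19.1% and 15.9% against the own line. All 12 had an unadjusted p under 0.05 over both lines (6.95% of all genes). Against the own line 8 had, 1 higher and 7 lower (9.3% of all genes). Beside those above, the lower ones were Fam83d at -0.76, Cdca3 at -0.60 and the separase Espl1 at -0.54. The higher ones were Hdac11 and Ezh1, a histone methyltransferase, at 0.50. Hdac11, the class IV histone deacetylase, lay at 1.59, 1.64 and 1.28 in AxLN against 0.28 and 0.62 in MFP, with a difference of 1.06 ± 0.25 (1.02 against the own line). Its arrays read 61.2, 75.9 and 90.0 in AxLN and 31.3, 35.8 and 45.7 in MFP, with 22.9, 26.9 and 34.1 in parental mCh/rL and 24.3, 26.0 and 30.6 in parental GFP/fL. Both MFP sub-clones were above the parental mean as well. Of 10 histone deacetylase genes over both lines, Hdac11 alone was separated on the higher side and Hdac2, at -0.22, alone on the lower side. These shares are no larger than the 14.3% and 17.7% of all genes, and the list median was 0.05. Against the own line 1 was separated on the higher side and 3 on the lower side (15.9% and 19.1% of all genes), with a median of -0.06.

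Promoters of members that were lower together are shown to set their sequence beside these values. They are RefSeq sequences of build GRCm38.p6, printed 5′ to 3′ on the strand of the gene. Capitals mark the CHR motif TTTGAA, bound by the complexes that time mitotic genes, or the E2F motifs TTTCGCGC and TTTGGCGC, each searched on both strands between 250 bases before and 50 bases after the start, where overlapping matches run together. E2f8 (chr7:48881575-48881652, minus strand) and Cdk1 (chr10:69352886-69353019, minus strand) hold CHR matches 20 bases, and 71 and 15 bases, before the start. Mcm5 (chr8:75109320-75109403, plus strand) and Mcm6 (chr1:128359709-128359851, minus strand) hold E2F matches. The Cdk1 promoter also holds an E2F match, 131 bases before the start and outside the stretch shown.
E2f8: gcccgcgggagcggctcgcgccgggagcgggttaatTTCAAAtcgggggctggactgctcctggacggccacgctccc
Cdk1: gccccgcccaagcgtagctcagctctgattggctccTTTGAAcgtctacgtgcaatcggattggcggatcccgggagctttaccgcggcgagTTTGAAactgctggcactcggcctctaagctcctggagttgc
Mcm5: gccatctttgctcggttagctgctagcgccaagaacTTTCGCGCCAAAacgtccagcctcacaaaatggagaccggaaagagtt
Mcm6: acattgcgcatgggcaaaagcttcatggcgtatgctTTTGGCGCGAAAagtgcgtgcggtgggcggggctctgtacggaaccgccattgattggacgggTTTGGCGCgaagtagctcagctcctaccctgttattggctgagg
The CHR motif was present in 32 of 45 matched G2/M promoters (71.1%) and 6 of 30 S phase promoters (20%), against 5466 of all 27025 promoters (20.2%). An E2F motif was present in 7 of 30 S phase promoters (23.3%) and 2 of 45 G2/M promoters (4.44%), against 251 of all promoters (0.929%). A match is a description of the sequence and not a measured site. Mcm6 shows that a promoter with 3 E2F matches belonged to a gene with overlapping sub-clones.

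**Figure D2:**
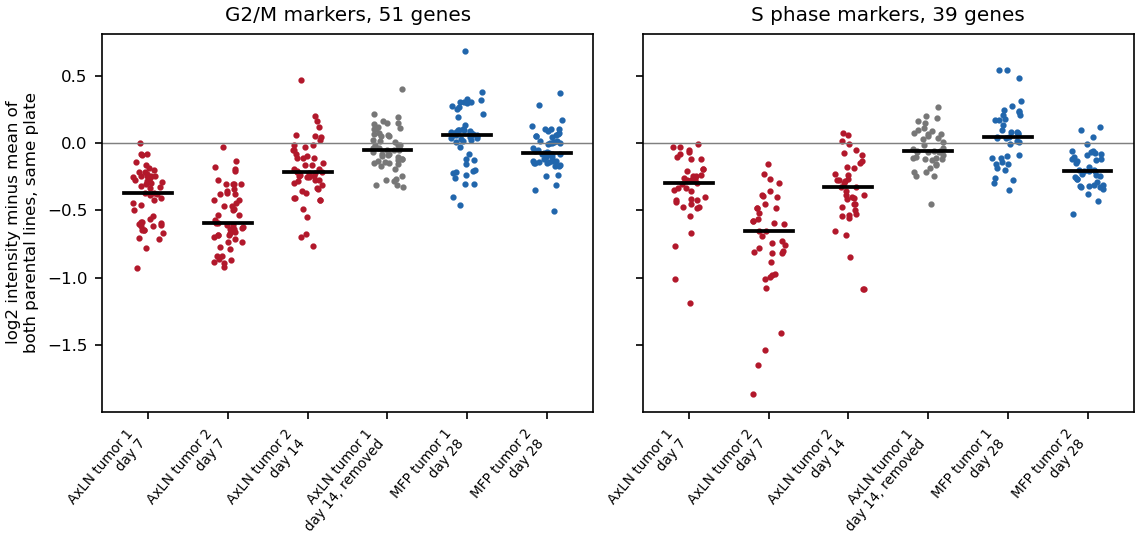
Log2 intensity minus the average of the 2 parental lines on that plate (vertical axis) for the 51 G2/M genes (left) and the 39 S phase genes (right), with 1 dot per gene in each sub-clone and a bar at the median. The AxLN medians lie between -0.65 and -0.22, the MFP medians between -0.20 and 0.06, and the AxLN tumor 1 day 14 sub-clone whose arrays are titled removed (grey) at -0.05 and -0.06.

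The integrated stress response depended on the baseline. Over both parental lines 28 of 29 tested genes were higher in AxLN, with a median of 0.53, and 21 were separated on that side (14.3% of all genes). Against the own line 10 were higher and 19 lower, with a median of -0.07, and 2 were separated on the higher side (15.9% of all genes) and 7 on the lower side (19.1% of all genes). By construction the gap equals the parental difference. Of the 29 genes, 26 were called higher in parental mCh/rL than in GFP/fL by limma at an adjusted p under 0.05, where 6.21% of all genes were, with a median of 0.60. At an unadjusted p under 0.05, 12 were higher over both lines (2.97% of all genes). Against the own line 2 were higher and 2 lower (3.96% and 5.34% of all genes). By sub-clone the medians were 0.11, 0.54 and 0.60 in AxLN against -0.29 and -0.27 in MFP over both lines, and -0.19, 0.21 and 0.21 in AxLN against 0.05 and 0.11 in MFP over the own line. AxLN tumor 1 day 7 and the AxLN tumor 2 sub-clones therefore lay on opposite sides of the MFP sub-clones under the own-line baseline. The aminoacyl-tRNA synthetases, which charge transfer RNAs and include many ATF4 targets, had a median of 0.23 with 12 of 16 higher over both lines and of -0.06 with 7 of 16 higher against the own line.

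Trib3, a pseudokinase induced by ATF4, lay at 0.51, 1.58 and 1.59 in AxLN against -0.36 and -0.46 in MFP. Its arrays read 192, 377 and 429 in AxLN and 87.1, 109 and 114 in MFP, with 207, 225 and 236 in parental mCh/rL and 79.9, 84.4 and 92.4 in parental GFP/fL. MFP tumor 1, MFP tumor 2 and AxLN tumor 1 day 7 stood near their own parental lines, both AxLN tumor 2 sub-clones lay above parental mCh/rL, and the difference of 1.64 over both lines was 0.25 against the own line. Vldlr, a lipoprotein receptor, lay at 0.46, 0.98 and 0.13 in AxLN against -1.75 and -0.90 in MFP. Arrays read 26.6, 30.7 and 61.3 in AxLN and 5.23, 10.5 and 13.9 in MFP, with 32.2, 38.7 and 43.5 in parental mCh/rL and 12.9, 15.1 and 17.3 in parental GFP/fL, and the difference of 1.85 was 0.50 against the own line. Cth, which makes cysteine from cystathionine, differed by 1.64 against 0.31, and Slc7a11, the cystine importer, lay at 0.35, 1.07 and 1.24 in AxLN against -0.44 and -0.26 in MFP and differed by 1.24 against 0.23. Asns, the asparagine synthetase, lay at -0.09, 0.45 and 0.21 in AxLN against -0.37 and -0.31 in MFP and differed by 0.53 against -0.07.

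Some members kept a difference under both baselines. Ppp1r15a, the phosphatase subunit that ends the response, differed by only -0.05 between the parental lines. It lay at 0.52, 1.48 and 1.43 in AxLN against -0.29 and 0.39 in MFP, a difference of 1.09 over both lines and 1.14 against the own line. The transcription factor Atf5 lay at 0.77, 1.21 and 0.75 against -0.46 and -0.09, a difference of 1.18 against 0.45. These were the 2 of 29 genes separated on the higher side under both baselines, a share no larger than the 8.47% of all genes. On the other side, Ddit4, an inhibitor of mTOR signaling, differed by 0.71 over both lines and by -0.82 against the own line, with a parental difference of 1.53.

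Promoter stretches of 3 of these genes are shown because the group was higher as one over both lines. Capitals mark the C/EBP-ATF response element, searched as TGATGNAA on both strands in the same window. Vldlr (chr19:27216784-27216863, plus strand) has a match 200 bases before the start, Slc7a11 (chr3:50443617-50443715, minus strand) has matches 66 and 47 bases before it, and Asns (chr6:7693189-7693268, minus strand) has one 23 bases before it.
Vldlr: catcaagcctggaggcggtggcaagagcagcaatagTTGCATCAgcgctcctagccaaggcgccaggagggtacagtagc
Slc7a11: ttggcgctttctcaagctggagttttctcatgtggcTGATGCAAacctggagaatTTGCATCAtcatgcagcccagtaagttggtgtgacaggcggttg
Asns: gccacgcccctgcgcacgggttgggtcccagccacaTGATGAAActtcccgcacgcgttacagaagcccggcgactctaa
The motif was present in 8 of 25 matched promoters of the list (32%) and in 4 of 9 of the aminoacyl-tRNA synthetases (44.4%), against 1219 of all promoters (4.51%).

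**Figure D3:**
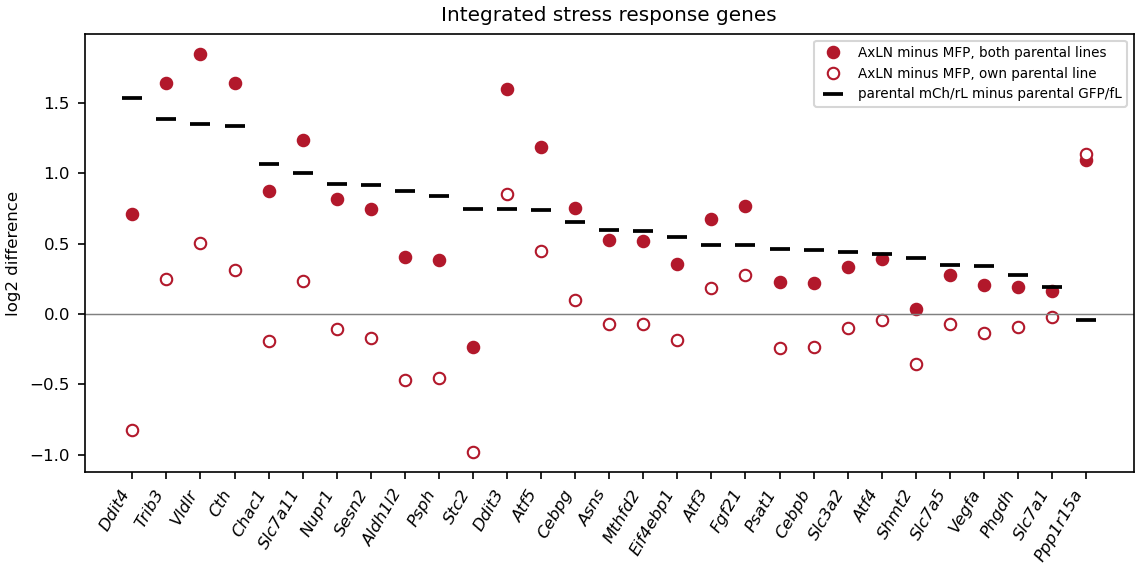
Log2 difference (vertical axis) for the 29 integrated stress response genes, ordered by the difference of parental mCh/rL minus parental GFP/fL (black bars), with AxLN minus MFP over both parental lines (filled circles) and against the own parental line (open circles). The filled circles have a median of 0.53 and the open ones of -0.07, and Ppp1r15a at the right end has both circles above 1 with a parental difference of -0.05.

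Other genes showed the same dependence. Over both lines but not against the own line, Gbp9, an interferon-inducible GTPase, differed by 1.28 against 0.06 and Ciart, a repressor of the clock, by 1.06 against 0.27. On the lower side the 6 such genes with the largest differences lay between -0.73 and -0.54 over both lines and between -0.22 and 0.03 against the own line. They were Pdzrn3, Fam219a, Phf11c, Mrps14, Zc3h13 and Fancm, of which Mrps14 encodes a mitochondrial ribosomal protein and Fancm a DNA repair translocase. Conversely, some genes were separated only against the own line. Txnip, an inhibitor of glucose uptake, had arrays of 432, 573 and 709 in AxLN and 376, 439 and 527 in MFP, with 176, 190 and 196 in parental mCh/rL and 57.1, 59.4 and 60.3 in parental GFP/fL. All sub-clones were above both lines, and the difference was 0.36 over both lines and -1.31 against the own line. The transglutaminase Tgm2 behaved alike, with arrays of 199, 331 and 447 in AxLN and 294, 311 and 335 in MFP, a difference of -0.03 over both lines and -1.38 against the own line. Others of this kind were Glipr2 at -1.38, the nuclear matrix protein Banp at -1.09, Zfp457 at -1.003 and the secreted glycoprotein Stc2 at -0.98. On the higher side they were the adhesion receptor Adgrg1 at 1.78, the interferon-inducible Ifi209 at 1.14, Olfr331 at 1.04, the glutathione transferase Gstm1 at 1.00, the clock repressor Nr1d1 at 0.87 and Pbp2 at 0.80. Several of these genes were dim, where array medians were 8.53 to 9.15. Median intensities in AxLN and MFP arrays were 9.54 and 8.07 for Olfr331, 12.39 and 10.98 for Pbp2 and 7.26 and 6.96 for Zfp457. For Phf11c they were 7.4 and 9.79, and for Mrps14 12.12 and 15.16. Zfp457 ranged from 7.77 to 32.37 within parental mCh/rL. The part of noise in the differences of these dim genes was not tested.

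Epithelial genes were higher in AxLN, and much of this rested on MFP tumor 1. Of 29 tested genes of junctions, keratins and their regulators, 25 were higher over both lines with a median of 0.47, and 23 against the own line with a median of 0.49. On the higher side 17 were separated over both lines (14.3% of all genes) and 10 against the own line (15.9% of all genes). By sub-clone the medians were 0.23, 0.09 and 0.43 in AxLN against -0.54 and 0.04 in MFP. MFP tumor 1 was the lowest of the 5 sub-clones for 23 of the 29 genes (79.3%), where it was so for 24.1% of all genes. Without it the median was 0.20 with 22 of 29 higher over both lines, and 0.07 with 19 higher against the own line.

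Rab25, a trafficking protein of epithelial cells, lay at 0.93, 0.69 and 0.75 in AxLN against -2.18 and 0.57 in MFP, and the basal keratin Krt14 at 0.43, 0.83 and 0.56 against -1.67 and 0.57. For Krt14 the value of MFP tumor 2 lay inside the AxLN range. Epcam, the epithelial adhesion molecule, lay at 0.70, 0.40 and 0.50 in AxLN against -0.41 and 0.13 in MFP, and Krt19 at 0.46, 0.41 and 0.58 against -1.22 and 0.06, with both separated over both lines. Without MFP tumor 1 the differences of 0.67 for Epcam and 1.06 for Krt19 were 0.40 and 0.42.

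Cytokine and matrix genes split the same way. Cxcl5, a chemokine for neutrophils, lay at 3.55, 2.97 and 4.22 in AxLN against -0.81 and 3.55 in MFP, with arrays of 1097, 1580 and 2785 in AxLN, 76.9, 800.1 and 1614 in MFP, 119, 129 and 140 in parental mCh/rL and 137, 153 and 158 in parental GFP/fL. Every sub-clone except MFP tumor 1 was far above the parental lines. Cxcl1, at 2.34, 2.83 and 3.28 against -0.49 and 2.68, the interleukin Il1a, at 2.54, 1.73 and 3.32 against -2.75 and 2.82, and the acute phase protein Lcn2, at 5.08, 5.91 and 5.57 against 2.68 and 5.57, had the same form. For these 4 genes MFP tumor 2 lay within the AxLN range. The summed macrophage markers overlapped between the groups, at 270 to 544 in AxLN arrays against 183 to 427 in MFP arrays. The 3 markers above the filter differed by 0.73 (Cd68), 0.63 (Csf1r) and 0.22 (Cd14), and none was separated by sub-clone. The part of other cells in the cytokine values was not tested. Ccl20, a chemokine for dendritic cells and B cells, was separated, at 1.30, 3.59 and 2.62 in AxLN against -0.14 and 1.14 in MFP. The list of 16 colony-stimulating factors, interleukins and acute phase genes had a median of 0.37 with 12 higher, and of -0.07 without MFP tumor 1. The 18 extracellular matrix genes had a median of 0.07, and of -0.11 without it. Among them Fbln2, a fibulin of basement membranes, lay at -0.31, 0.01 and -0.21 in AxLN against -1.92 and -0.29 in MFP. Postn, a matricellular protein, lay at 1.02, 3.87 and 1.25 in AxLN against -1.98 and -0.45 in MFP. Its difference was 3.27 over both lines and 1.59 against the own line. Its arrays read 96.6, 134 and 840 in AxLN against 12.3, 24.1 and 40.2 in MFP. The summed fibroblast markers rest mostly on Pdgfra, with medians of 150 in AxLN against 279 in MFP. Col1a1, the other one above the filter, had 14.8 against 14.9. The part of other cells in the Postn values was not tested. The ligand genes Wnt7a, at 0.15, 0.26 and -0.19 against -2.29 and -0.09, and Jag1, at -0.28, 0.93 and 0.17 against -1.69 and 0.03, were also low in MFP tumor 1 alone.

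**Figure D4:**
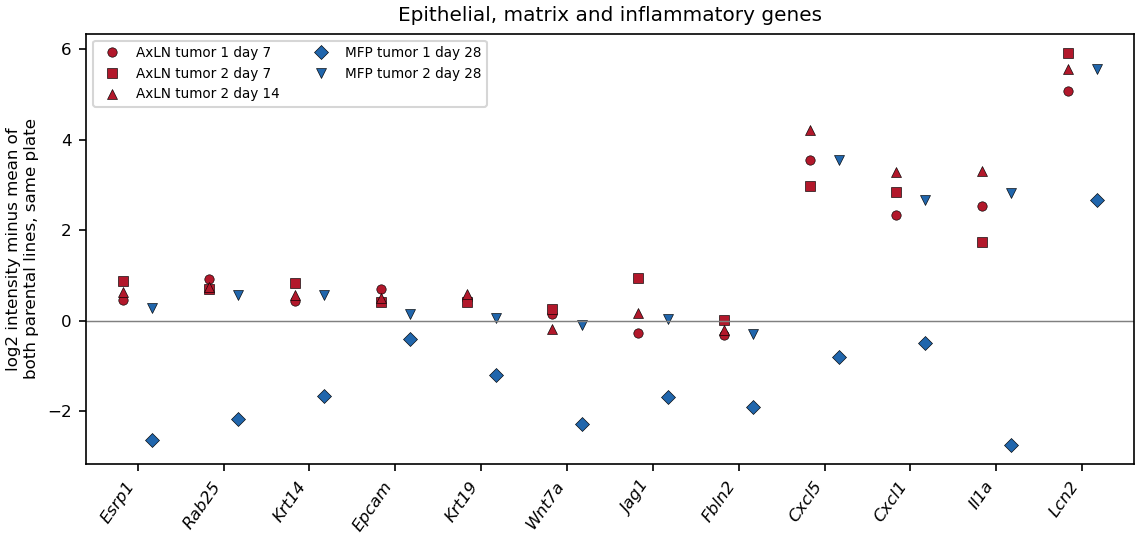
Log2 intensity minus the average of the 2 parental lines on that plate (vertical axis) for 12 epithelial, matrix and inflammatory genes, with 1 point per sub-clone, AxLN left of MFP for each gene. The genes were picked as ones in which MFP tumor 1 stands apart. MFP tumor 1 (diamonds) is therefore the lowest point for every gene drawn, at -2.75 for Il1a and -2.18 for Rab25. MFP tumor 2 lies near the AxLN points. Over the whole lists MFP tumor 1 was lowest for 23 of 29 epithelial and 11 of 18 matrix genes. It was lowest for 6 of 15 chemokine genes and 10 of 16 colony-stimulating factor, interleukin and acute phase genes.

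Protein folding, glycolytic and lipid genes were lower in AxLN under both baselines. Of 19 endoplasmic reticulum chaperone and unfolded protein response genes, 15 were lower over both lines and 16 against the own line, with medians of -0.24 and -0.33, and 12 were separated on the lower side under each, where 17.7% and 19.1% of all genes were. Sdf2l1, a chaperone cofactor of the endoplasmic reticulum, lay at -0.38, -0.54 and -0.06 in AxLN against 0.22 and 0.60 in MFP, a difference of -0.73 ± 0.22. The co-chaperone Dnajc3 differed by -0.56 and calreticulin, Calr, by -0.54. The central chaperone Hspa5 differed by -0.24 over both lines and -0.40 against the own line. Without MFP tumor 1 the list median was -0.21.

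Of 24 glycolysis and hypoxia genes, 19 were lower over both lines and 21 against the own line, with medians of -0.23 and -0.39, and 11 were separated on the lower side over both lines and 15 against the own line, where 17.7% and 19.1% of all genes were. Egln3, an oxygen sensor, lay at -0.07, -0.50 and 0.00 in AxLN against 1.24 and 0.34 in MFP, and P4ha1, a collagen prolyl hydroxylase, at -0.29, -0.19 and -0.08 against 0.89 and 0.27. AxLN stayed at or below the parental mean for both. MFP tumor 1 was the highest sub-clone for 17 of the 24 genes, a larger share than the 3121 of all 11565 genes. Without it the median was -0.15, and the differences of Egln3 and P4ha1, -0.98 and -0.77, were -0.53 and -0.45.

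Of 14 fatty acid synthesis and storage genes, 12 were lower over both lines with a median of -0.36, and 13 against the own line with a median of -0.32. Scd1, a desaturase of fatty acids, lay at -0.44, -0.9998 and -0.45 in AxLN against 0.46 and 0.14 in MFP (difference -0.93 ± 0.27). The triglyceride-forming enzyme Dgat2 differed by -0.81 and fatty acid synthase, Fasn, by -0.54. Of 19 cholesterol synthesis genes 17 were lower with a median of -0.29, and 3 were separated on the lower side, where 17.7% of all genes were. The medians by sub-clone were -0.09, -1.07 and -0.56 in AxLN against -0.35 and -0.14 in MFP, so both AxLN tumor 2 sub-clones lay below the MFP sub-clones and AxLN tumor 1 day 7 above them. Lss, which forms lanosterol, was 1 of the 3 separated genes, at -0.44, -1.56 and -0.86 in AxLN against -0.34 and -0.07 in MFP. The median difference for this list was 0.11 within plate 1, which holds AxLN tumor 1 day 7, and -0.41 within plate 2. Of 25 oxidative phosphorylation genes, 20 were lower with a median of -0.07 and 6 separated on the lower side over both lines (17.7% of all genes), and 21 were lower with a median of -0.13 and 14 separated against the own line (19.1% of all genes).

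**Figure D5:**
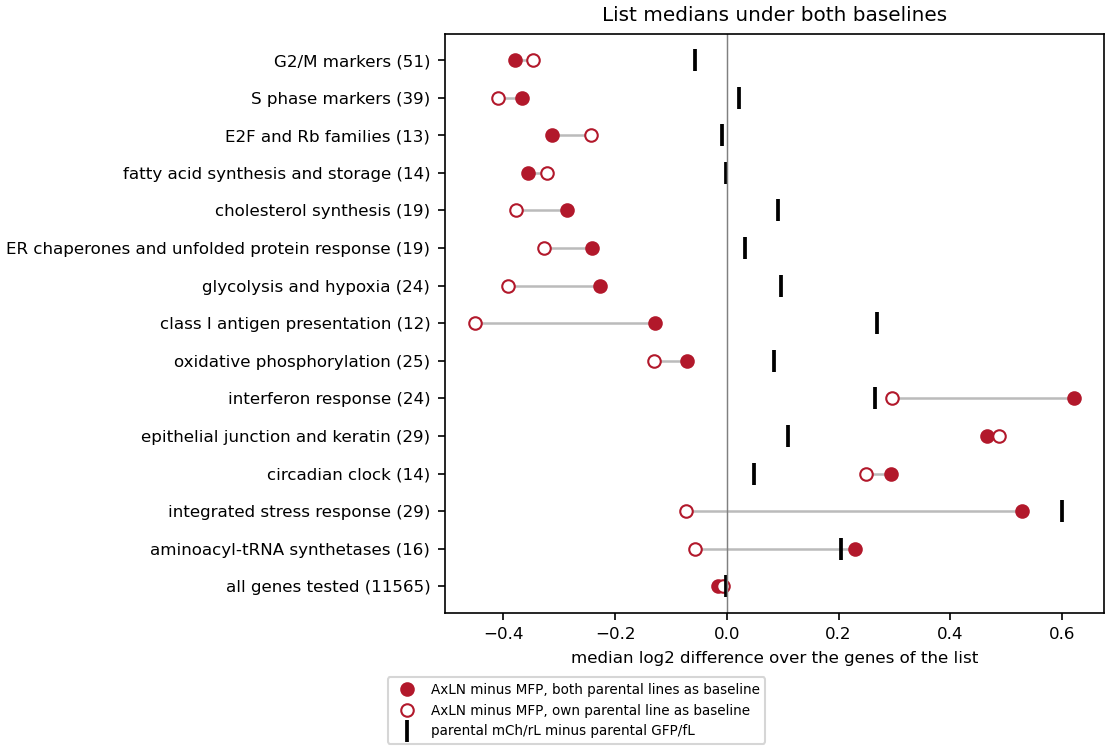
Median log2 difference over the genes of a list (horizontal axis) for 14 gene lists and for all genes tested, with the number of genes in brackets: AxLN minus MFP over both parental lines (filled circles), against the own parental line (open circles) and parental mCh/rL minus parental GFP/fL (black bars). The G2/M and S phase lists lie between -0.41 and -0.35 under both baselines, and the integrated stress response list at 0.53 and -0.07.

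Interferon genes varied widely among the AxLN sub-clones. Of 24 tested genes 22 were higher over both lines with a median of 0.62, and 17 against the own line with a median of 0.30, and 0 had an unadjusted p under 0.05. Separated on the higher side were 3 over both lines and 1 against the own line, shares no larger than the 14.3% and 15.9% of all genes. The medians by sub-clone were 0.74, 2.63 and 1.99 in AxLN against 1.05 and 1.24 in MFP. All were above the parental lines, AxLN tumor 1 day 7 the least and both AxLN tumor 2 sub-clones the most, and the list median was -0.24 within plate 1 and 1.21 within plate 2. Irf7, a transcription factor of the response, lay at 1.43, 4.64 and 2.94 in AxLN against 1.56 and 1.33 in MFP, and Usp18, which removes ISG15 from proteins, at 2.95, 5.42 and 4.72 against 1.71 and 3.58, a difference of 1.72 that was 0.79 without MFP tumor 1. The antiviral synthetase gene Oas2 lay at 0.24, 3.26 and 1.46 in AxLN against -0.13 and -0.10 in MFP and was separated. Of 12 class I antigen presentation genes, 8 were lower over both lines (median -0.13) and 10 against the own line (median -0.45). The medians by sub-clone were 0.36, 0.92 and 0.95 in AxLN against 0.73 and 0.89 in MFP over both lines, so both AxLN tumor 2 sub-clones lay above the MFP sub-clones and AxLN tumor 1 day 7 below them, and the list median was -0.67 within plate 1 and 0.11 within plate 2. The immunoproteasome subunit gene Psmb9 lay at 0.39, 0.57 and 1.34 in AxLN against 1.39 and 1.63 in MFP, a difference of -0.74 over both lines and -1.31 against the own line. Its levels too were above the parental mean in every sub-clone.

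Circadian clock genes were higher in AxLN. Of 14 tested genes 11 were higher over both lines with a median of 0.29, and all 14 against the own line with a median of 0.25. Separation on the higher side held for 6 over both lines (14.3% of all genes) and 5 against the own line (15.9% of all genes). Arntl, which encodes the clock activator BMAL1, lay at 0.80, 1.04 and 1.05 in AxLN against -0.29 and 0.07 in MFP, a difference of 1.07 ± 0.23 (0.80 against the own line). Dbp, a clock output factor, lay at 2.00, 1.78 and 1.01 against 0.50 and 0.42, a difference of 1.14 ± 0.38 (0.60 against the own line). The median without MFP tumor 1 was 0.25. The time of day at which cultures were lysed is not given in the sources used here.

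The AxLN tumor 1 sub-clone of day 14, whose 3 arrays are titled removed, was not used above. Of the 24 genes with the largest differences it lay nearer to the MFP than to the AxLN mean for 12, and of the 12 genes drawn by the study for 11, with Hdac11 at 0.07. H2-Ab1 lay at 1.91 in it. With all arrays titled removed included, limma called 0 genes, and 214 had an unadjusted p under 0.05 over both lines. Among these arrays were those of a removed sub-clone from a lung metastasis of a node-injected mouse, which entered for the spread only.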

How the data were processed

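Per the study's methods, the authors summarized the Affymetrix arrays with RMA, scaled the 2 plates by their cumulative expression and deposited linear intensities (1.11 to 10561.01, array medians 8.53 to 9.15). The submitters' processing notes name Affymetrix Expression Console, and its version and the genome build are not given in the sources used here. The number of arrays limits the precision. Of 41345 probe sets, 23521 had 1 symbol, 1820 several and 16004 none, and 23328 matched the reference by Entrez ID. The brightest probe set stood for each of 18964 protein-coding genes, and 11565 with a log2 mean of at least 3.11 (the 50th percentile) were tested. The labels name the plate of 6 arrays, 4 of parental lines and 2 of MFP tumor 1. The plates of all arrays were taken from column order, which met those 6 labels. Log2 values minus the parental mean were averaged per sub-clone and tested with limma 3.58.1 in R 4.3.3. The fit held 3 AxLN-LuM sub-clones, from lung metastases of node-injected mice, for the spread only. P-values of the AxLN and MFP comparison measure the spread between sub-clones. The parental comparison was fitted on the 8 single parental arrays with plate as a covariate. Its p-values measure only the spread between arrays of one line. The scripts also used Python 3.11.15.

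Named were the 12 genes per direction with the largest differences that were separated under both baselines, of one sign in both plates and with an unadjusted p under 0.05; 6 per direction that depended on the baseline; up to 4 per list; and those drawn by the study. Ptprc, Pdgfra, H2-Eb1, Mcm5, Mcm6, Cdk1, Ect2, E2f3, Asns, Ppp1r15a, Atf5, Epcam, Krt19 and Hspa5 fall outside this rule and were chosen after their values were seen. Members and lists were chosen with earlier results of these data known. Alternatives were the normalization, filter, baseline, plate, array-level fits and leaving out each sub-clone.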

Additional observations from a re-analysis of the deposited data

Results flagged for a closer look

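In Ifi205, array 1 of MFP tumor 2 lay at 1.00 over both parental lines, far from the other 5 MFP arrays, of which the nearest was at 0.20. In Rerg, array 2 of AxLN tumor 2 day 14 lay at 0.82, and the nearest of the other 8 AxLN arrays was at 0.25. These are 2 of 96 groups of arrays examined (48 genes). Chance alone would set about 1 in 20 groups of independent arrays apart in this way. Arrays of one sub-clone are not independent, so this rate does not apply to these groups. Signal was also present in the removed AxLN tumor 1 day 14 sub-clone, which entered only the alternative fit with removed arrays included: H2-Ab1 lay at 1.91 and A630001G21Rik at 0.94 above the parental mean.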

How the results depend on the processing

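With the sub-clone as the replicate, the count of 0 genes was met under every alternative over both lines. Against the own line it was met under every one except plate 2 alone. That fit sets the AxLN tumor 2 sub-clones against MFP tumor 1 alone, so only a difference is given for it. There Cxcl3, chosen here after its value was seen, differed by 4.35. Leaving out each sub-clone in turn gave 0 to 0 genes. Fits over arrays called more genes: 2195 over both lines and 2684 against the own line with arrays as replicates, and 98 and 112 when sub-clone entered as a random block (correlations 0.757 and 0.763), among them 31 and 21 of the genes named here. With a replicate block over arrays the counts were 1837 and 2285. The replicate numbers do not pair the samples: same-numbered arrays correlated by -0.026 to 0.06, with 0 of 30 pairs over 0.1. For the parental lines the count of 1485 was 722 with a replicate block and 501 with no filter on dim genes. Entirely separated genes were 440 higher and 658 lower by array, against 1656 and 2046 by sub-clone. The cause of the other moves was not tested.

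Of 100 named genes over both lines, 4 changed sign somewhere. Without MFP replicate 1, which is MFP tumor 1, Il1a was at -0.29, Lcn2 at -0.0424 and Ect2 at -0.10, and without MFP replicate 2 these genes were at 5.28, 2.85 and 0.15. Ect2 was at -0.0607 without AxLN replicate 2 and at -0.11 on plate 1 only, where Irf7 was at -0.0391. List medians ranged over the alternatives from -0.48 to -0.30 for G2/M, -0.55 to -0.22 for S phase, 0.20 to 0.90 for epithelial genes, -0.24 to 1.21 for interferon genes and, against the own line, -0.40 to 0.07 for the integrated stress response. Signal over background cannot be read from these summarized intensities.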

Other observations

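Single genes of growth factor, guidance and Wnt lists had large differences. The list of 22 growth factor receptors and ligands had a median of 0.07, and that of 23 semaphorins, plexins and ephrins of -0.10. Fgfr1, a fibroblast growth factor receptor, lay at -0.13, -0.57 and 0.23 in AxLN against 1.00 and 1.40 in MFP, a difference of -1.36 over both lines and -1.56 against the own line. Sema3c, a secreted semaphorin, lay at 1.04, 1.06 and 0.56 in AxLN against -0.75 and 0.51 in MFP, a difference of 1.00 that was 0.37 without MFP tumor 1. Porcn, which adds the lipid that Wnt proteins need for secretion, differed by 0.75, and the ligand gene Wnt10a by 1.11. The Wnt list itself was divided, with 11 of 24 genes higher and 13 lower over both lines and a median of -0.08. Btc, a ligand of the epidermal growth factor receptor, differed by 0.50 over both lines and by 1.27 against the own line. The 27 actin cytoskeleton and migration genes had MFP tumor 1 as the lowest sub-clone for 12, and the 20 Notch pathway genes for 11, where 24.1% of all genes had. These genes were not called, and their values are given with no explanation.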
